A study of Homo sapiens with 8 samples.

Results

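CC chemokines are small secreted proteins that guide leukocytes through receptors of the CCR family. The 10 genes described here were taken from a list of CC chemokines (CCL20, CCL2, CCL3, CCL4, CCL5, CCL7, CCL22, CCL26, CCL27 and CCL28) and make up 10 of the 14884 genes that could be named on the arrays. Each of the 10 had 1 probe set. Their expression was measured in SCC13, an established line from a human skin squamous cell carcinoma, with 2 arrays for each of 4 short hairpin RNAs. The hairpins were shEZH2, shRING1B, shBMI1 and, as the control, shGFP, whose target is a jellyfish protein that human cells do not make. All 8 arrays thus come from cells that carry a hairpin, and neither uninfected cells nor a second hairpin per target is among them. Nothing in the labels says that arrays of 1 hairpin come from separate cultures, and the p-values therefore rest on a spread that may be purely technical. The shEZH2 titles begin with SCCL3 and the other 6 with SCC13, while the cell line is given as SCC13 for all 8, so the effects of shEZH2 and of any other line or batch behind this prefix cannot be told apart.

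EZH2 is the enzyme of Polycomb repressive complex 2 that methylates histone H3, and RING1B and BMI1 are subunits of Polycomb repressive complex 1, which ubiquitinates histone H2A. Both complexes hold genes silent. Keratinocytes are a known source of CC chemokines in skin, above all of CCL20 when interleukin 17, interleukin 1 or tumour necrosis factor activates the transcription factor NF-kB. CCL20 binds CCR6 on immature dendritic cells, B cells and T helper 17 cells.

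Values are log2 expression after RMA, a summary that forces all arrays to a common distribution, and a difference of 1 is a doubling. Array medians lay between 5.49 and 5.52. EZH2 itself had 8.95 and 9.03 on the shEZH2 arrays, against 9.83 and 9.97 on the shGFP arrays, a log2 change of -0.91 ± 0.12 (SE, n = 2 per group, limma adjusted p = 0.0183), while BMI1 and RNF2 (the gene for RING1B) were not analysed here, so those knockdowns were not checked. Of 14 listed keratinocyte and epithelial markers, 5 were measured (KRT5, KRT14, EPCAM, DSG3 and SFN), all outside the dimmest 30% of genes on these arrays, with a mean over the list between 9.87 and 10.2 on every array. Its members did not move alike: with shEZH2 against shGFP, KRT14 was at -0.57, KRT5 at -0.27, SFN at -0.12, EPCAM at 0.25 and DSG3 at 0.43, and with shRING1B KRT14 was at -0.50 and DSG3 at -0.58, none past the threshold.

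Sequences before the starts of CCL20 and CCL22 are shown because, among the members searched, their promoters hold a match to the NF-kB consensus motif. RefSeq promoters (GRCh38.p14) were matched for 7 of the 10 genes, and 250 bases before each start were searched on both strands. CCL2, CCL4 and CCL5 had no matched promoter and were not searched. Capitals mark the NF-kB match.
CCL20, chr2:227813592-227813841, plus strand: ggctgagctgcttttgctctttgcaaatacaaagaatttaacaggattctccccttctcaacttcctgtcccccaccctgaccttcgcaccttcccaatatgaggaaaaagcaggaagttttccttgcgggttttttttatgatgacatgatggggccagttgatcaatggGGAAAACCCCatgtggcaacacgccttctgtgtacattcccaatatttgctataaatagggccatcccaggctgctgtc
CCL22, chr16:57358533-57358782, plus strand: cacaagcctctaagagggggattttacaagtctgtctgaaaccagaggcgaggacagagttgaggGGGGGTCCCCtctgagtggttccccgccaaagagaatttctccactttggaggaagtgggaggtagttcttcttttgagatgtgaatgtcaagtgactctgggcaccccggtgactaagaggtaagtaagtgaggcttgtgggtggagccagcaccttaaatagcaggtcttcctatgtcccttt
The CCL20 match lies on the opposite strand, 79 to 70 bases before the start, and the CCL22 match lies 185 to 176 bases before the start. NF-kB matches were present in 2 of the 7 members' promoters and in 5.05% of 27305 promoters of the same length. TATAAA was present in 3 of the 7 (CCL20, CCL3 and CCL7) and in 11.1% of all promoters. The pattern TGANTCA, used for AP-1 with any base at N, was present in 2 of the 7 and in 6.6% of all promoters. It read TGATTCA in CCL7 and TGACTCA in CCL27. No match of 1 motif overlapped a match of another in these promoters. A match describes letters only, and binding was not measured in these samples.

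CCL20 rose with shEZH2 and was the only member to pass the threshold against shGFP. Its values were 7.55 and 7.73 on the shEZH2 arrays, 7.31 and 6.62 on the shRING1B arrays, 5.89 and 6.41 on the shBMI1 arrays and 6.07 and 5.81 on the shGFP arrays. Both shEZH2 arrays lay above every other array, both shRING1B arrays lay above all shBMI1 and shGFP arrays, and the shBMI1 and shGFP arrays overlapped. The mean was 7.64 ± 0.12 with shEZH2, 6.97 ± 0.49 with shRING1B, 6.15 ± 0.37 with shBMI1 and 5.94 ± 0.19 with shGFP (SD, n = 2 each).

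Against shGFP, CCL20 changed with shEZH2 by 1.70 ± 0.24 on the log2 scale (SE; 95% interval 1.14 to 2.26; limma adjusted p = 0.026). With shRING1B the value was 1.03 ± 0.24 (95% interval 0.47 to 1.58), or 2.04-fold, and it did not pass (limma adjusted p = 0.346). With shBMI1 it was 0.21 ± 0.24 (95% interval -0.35 to 0.77; limma adjusted p = 0.999). These comparisons share the shGFP arrays. The shRING1B value rested most on 1 array: it was 0.68 without shRING1B replicate 1 and 1.37 without shRING1B replicate 2, and neither passed. The shBMI1 value was -0.06 without shBMI1 replicate 2. In bulk RNA a change in how many cells make CCL20 and a change in how much each cell makes cannot be told apart.

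The call for CCL20 with shEZH2 was lost without any 1 of the 4 arrays compared and when all probe sets entered the fit. Its adjusted p was 0.174 without shEZH2 replicate 1, 0.194 without shEZH2 replicate 2, 0.103 without shGFP replicate 1 and 0.153 without shGFP replicate 2, with log2 changes between 1.57 and 1.83. Over all 53617 probe sets, which changes both the adjustment and the shared variance, it was 0.132 with an SE of 0.26.

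**Figure D1:**
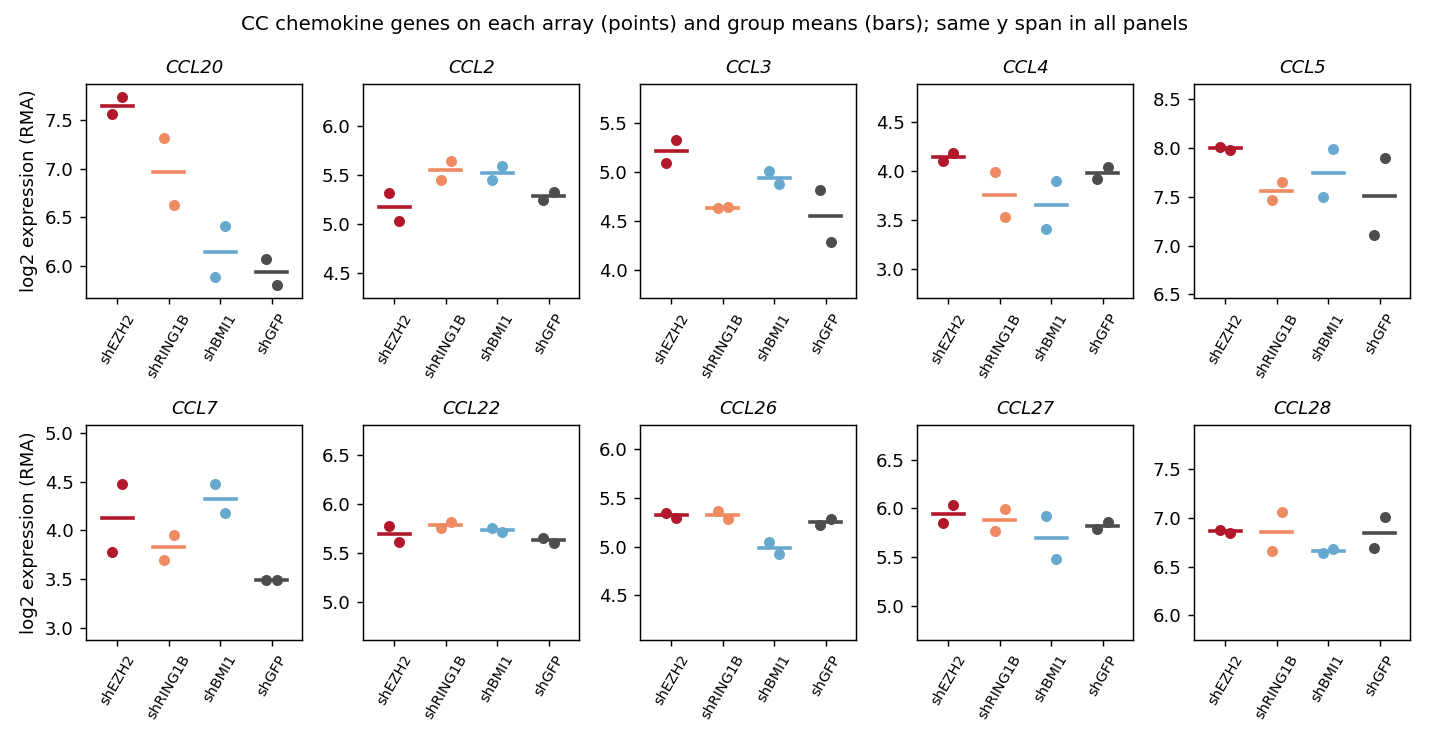
Log2 expression (RMA, y axis) of the 10 CC chemokine genes on each of the 8 arrays, by hairpin (x axis), with points for arrays and bars for group means of 2 arrays; each panel spans the same number of log2 units around its gene. CCL20 shows the widest separation, with both shEZH2 arrays (7.55 and 7.73) above all others, whereas CCL22 and CCL28 span 0.21 and 0.42 log2 units over all arrays. CCL26 spans 0.45, with its shBMI1 arrays the lowest.

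Set directly against each other, the hairpins differed in CCL20 as well. CCL20 was higher with shEZH2 than with shBMI1 by 1.49 ± 0.24 (SE; 95% interval 0.93 to 2.05; limma adjusted p = 0.0363). That call, too, was lost without either shEZH2 array (adjusted p = 0.168 without replicate 1 and 0.224 without replicate 2), without shBMI1 replicate 1 (0.172) or 2 (0.0631), without either shGFP array (0.0545 for each) and over all probe sets (0.177). Between shEZH2 and shRING1B the difference was 0.67 ± 0.24 (95% interval 0.11 to 1.23; limma adjusted p = 0.249), and between shRING1B and shBMI1 it was 0.82 ± 0.24 (95% interval 0.26 to 1.38; limma adjusted p = 0.374). Neither passed. In the order shEZH2, shRING1B, shBMI1, shGFP, no neighbouring pair therefore differed past the threshold.

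As a group, 1 of the 10 members passed with shEZH2 against shGFP, where 0.732% of all genes did. Of the 10, 9 had positive values, with a median of 0.14 beside -0.01 over all genes. The share of positive values over all genes was not counted. At an unadjusted p under 0.05 there were 3 members (CCL20, CCL3 and CCL7), where 16.2% of all genes were. The shEZH2 arrays lay wholly above the shGFP arrays for 6 members (CCL20, CCL3, CCL4, CCL5, CCL7 and CCL26), beside 23.1% of all genes, and wholly below for 0, beside 27.0% of all genes. CCL3, CCL4, CCL7 and CCL26, and also CCL2, were among the dimmest 30% of genes.

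With shRING1B, 0 of the 10 passed against shGFP by limma, where 0% of all genes did. CCL20 was the 1 member with an unadjusted p under 0.05, a level that 8.60% of all genes reached. Arrays lay wholly above shGFP for 4 members (CCL20, CCL2, CCL7 and CCL22; 18.2% of all genes) and wholly below for 0 (19.1% of all genes). Of the 10, 9 had positive values here too, and the median over the members was 0.08, beside -0.00 over all genes.

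With shBMI1, again 0 of the 10 passed by limma, where 0% of all genes did. At an unadjusted p under 0.05 there were 3 members (CCL3, CCL7 and CCL26), where 5.58% of all genes were. The arrays lay wholly above shGFP for 4 members (CCL2, CCL3, CCL7 and CCL22; 14.0% of all genes) and wholly below for 3 (CCL4, CCL26 and CCL28; 17.8% of all genes). Values were positive for 6 members and negative for 4, and the median was 0.16, beside -0.01 over all genes.

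**Figure D2:**
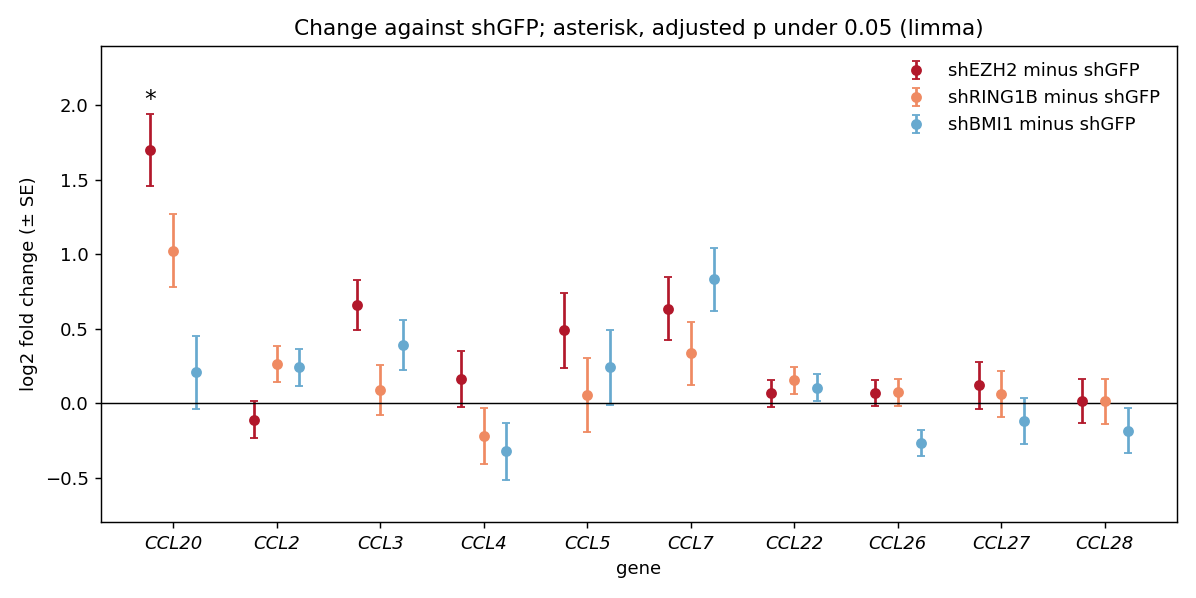
Log2 fold change against shGFP (y axis, points with SE bars from the limma fit over 8 arrays) of the 10 CC chemokine genes (x axis), with shEZH2, shRING1B and shBMI1 side by side for each gene. The asterisk marks adjusted p under 0.05, which CCL20 with shEZH2 (1.70 ± 0.24) alone reached. Across the hairpins, CCL7 has its own largest value with shBMI1 (0.83 ± 0.21) and CCL20 its own smallest with shBMI1 (0.21 ± 0.24).

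CCL2 and CCL7, neighbours in a chemokine cluster on chromosome 17, both attract monocytes through CCR2. Both had their shRING1B and shBMI1 arrays wholly above shGFP, and with shEZH2 CCL7 did and CCL2 did not. CCL7 had 3.78 and 4.47 on the shEZH2 arrays, 3.70 and 3.95 on the shRING1B arrays, 4.47 and 4.18 on the shBMI1 arrays and 3.49 and 3.50 on the shGFP arrays. All 6 knockdown arrays lay above both shGFP arrays, whose SD was 0.0055. CCL7 and CCL2 were both among the dimmest 30% of genes, and whether they were detected was not tested. The CCL7 change was largest with shBMI1, at 0.83 ± 0.21 (limma adjusted p = 0.664), beside 0.63 ± 0.21 with shEZH2 (0.206) and 0.33 ± 0.21 with shRING1B (0.731), and none passed. The shEZH2 value was 0.98 without shEZH2 replicate 1 and 0.29 without shEZH2 replicate 2, and the shRING1B value was 0.21 without shRING1B replicate 2.

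CCL2 had 5.31 and 5.03 on the shEZH2 arrays, 5.45 and 5.64 on the shRING1B arrays, 5.45 and 5.60 on the shBMI1 arrays and 5.24 and 5.32 on the shGFP arrays. Its shRING1B and shBMI1 arrays lay above shGFP, and its shEZH2 arrays overlapped them. Against shGFP the change was -0.11 ± 0.12 with shEZH2, 0.26 ± 0.12 with shRING1B and 0.24 ± 0.12 with shBMI1. CCL2 was lower with shEZH2 than with shRING1B by a log2 difference of -0.37 ± 0.12 and than with shBMI1 by -0.35 ± 0.12, with no overlap between arrays, though neither difference passed (limma adjusted p = 0.209 and 0.231).

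CCL3, CCL4 and CCL5 are inflammatory chemokines that attract T cells and monocytes. CCL3 and CCL4 were among the dimmest 30% of genes. CCL3 had 5.10 and 5.33 on the shEZH2 arrays, 4.63 and 4.65 on the shRING1B arrays, 5.01 and 4.87 on the shBMI1 arrays and 4.82 and 4.28 on the shGFP arrays. The shEZH2 arrays were the highest of the 8, and the shGFP arrays were the farthest apart. Its change with shEZH2 was 0.66 ± 0.17, the second largest of the members in that comparison (limma adjusted p = 0.12). It was 0.39 with shEZH2 once shGFP replicate 2 was left out and 0.93 once shGFP replicate 1 was. With shRING1B and shBMI1 it was 0.09 ± 0.17 and 0.39 ± 0.17 (limma adjusted p = 0.934 and 0.89), and the shBMI1 value was 0.66 without shGFP replicate 1 and 0.12 without shGFP replicate 2. CCL3L1, a near-identical copy with a probe set of its own, may share probes or transcripts with CCL3, so CCL3 values are uncertain. CCL3L1 had 6.33 and 6.37 on the shEZH2 arrays, 6.11 and 6.42 on the shRING1B arrays, 6.35 and 6.43 on the shBMI1 arrays and 6.15 and 6.03 on the shGFP arrays. Its change was 0.27 ± 0.12 with shEZH2 and 0.30 ± 0.12 with shBMI1, and neither passed (limma adjusted p = 0.31 and 0.876). It was named after its values were seen.

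CCL4 had 4.11 and 4.19 on the shEZH2 arrays, 3.99 and 3.53 on the shRING1B arrays, 3.41 and 3.91 on the shBMI1 arrays and 3.92 and 4.05 on the shGFP arrays. The shEZH2 arrays were again the highest, by a small margin over shGFP (0.16 ± 0.19), while the values with shRING1B and shBMI1 were -0.22 ± 0.19 and -0.32 ± 0.19. The shBMI1 value of CCL4 was -0.08 without shBMI1 replicate 1 and -0.57 without shBMI1 replicate 2. CCL5 had 8.01 and 7.98 on the shEZH2 arrays, 7.46 and 7.65 on the shRING1B arrays, 7.50 and 7.99 on the shBMI1 arrays and 7.11 and 7.90 on the shGFP arrays. The shGFP arrays were the most unlike pair for this gene, with an SD of 0.56. Its change with shEZH2, 0.49 ± 0.25 over both shGFP arrays, was 0.09 without shGFP replicate 1 and 0.89 without shGFP replicate 2. With shRING1B and shBMI1 it was 0.05 ± 0.25 and 0.24 ± 0.25, and its direction turned to -0.34 and -0.16 without shGFP replicate 1.

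CCL22, which attracts regulatory and type 2 helper T cells through CCR4, did not pass in any comparison. It had 5.77 and 5.61 on the shEZH2 arrays, 5.75 and 5.82 on the shRING1B arrays, 5.75 and 5.72 on the shBMI1 arrays and 5.66 and 5.60 on the shGFP arrays. The shRING1B and shBMI1 arrays lay above both shGFP arrays, by 0.15 ± 0.09 and 0.10 ± 0.09. The 95% interval of its change with shEZH2 ran from -0.14 to 0.27.

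CCL26 (eotaxin-3), a ligand of the eosinophil receptor CCR3, had 5.35 and 5.29 on the shEZH2 arrays, 5.37 and 5.28 on the shRING1B arrays, 5.05 and 4.92 on the shBMI1 arrays and 5.22 and 5.29 on the shGFP arrays. The gene was among the dimmest 30%, and the shBMI1 arrays were the lowest of the 8. With shBMI1 the change was -0.27 ± 0.09 against shGFP (limma adjusted p = 0.784), and CCL26 was higher than with shBMI1 by 0.33 ± 0.09 with shEZH2 and by 0.34 ± 0.09 with shRING1B. Neither difference passed (limma adjusted p = 0.134 and 0.324).

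CCL27 and CCL28 bind CCR10, with CCL27 made by keratinocytes to bring memory T cells into skin and CCL28 made mainly by mucosal epithelium. CCL27 had 5.85 and 6.03 on the shEZH2 arrays, 5.76 and 5.997 on the shRING1B arrays, 5.92 and 5.48 on the shBMI1 arrays and 5.79 and 5.86 on the shGFP arrays. It was the 1 member whose arrays overlapped in all 6 comparisons. CCL28 had 6.88 and 6.84 on the shEZH2 arrays, 6.66 and 7.06 on the shRING1B arrays, 6.64 and 6.68 on the shBMI1 arrays and 6.69 and 7.01 on the shGFP arrays. Only its shBMI1 arrays stood apart from shGFP, below them, with a change of -0.18 ± 0.15 (limma adjusted p = 0.989). With shEZH2 the changes of CCL27 and CCL28 were 0.12 ± 0.16 and 0.01 ± 0.15, with 95% intervals of -0.24 to 0.48 and -0.33 to 0.36.

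Between knockdowns, 1 of the 10 members passed with shEZH2 against shBMI1, where 0.974% of all genes did; 4 had an unadjusted p under 0.05 (CCL20, CCL2, CCL4 and CCL26), where 15.1% of all genes did. With shEZH2 against shRING1B, 0 passed by limma, where 0.578% of all genes did, and 3 had an unadjusted p under 0.05 (CCL20, CCL2 and CCL3), where 15.6% of all genes did. With shRING1B against shBMI1, 0 passed by limma, where 0.0134% of all genes did, and 3 had an unadjusted p under 0.05 (CCL20, CCL7 and CCL26), where 9.18% of all genes did.

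Among 14 further CC chemokines of the family, 11 were measured (CCL1, CCL8, CCL11, CCL16, CCL17, CCL18, CCL19, CCL21, CCL23, CCL24 and CCL25). None passed in any of the 6 comparisons by limma, and at an unadjusted p under 0.05 there were 0 in each comparison except 1 with shEZH2 against shRING1B, where 15.6% of all genes were. Their median against shGFP was -0.07 with shEZH2, -0.13 with shRING1B and -0.04 with shBMI1. CCL11, a second eosinophil attractant, had the largest value with shEZH2 against shGFP, -0.22, and CCL8, a monocyte attractant, had the largest of the list over all 6 comparisons, -0.40 with shEZH2 against shBMI1 (limma adjusted p = 0.502).

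Of 14 receptors and decoy receptors for CC chemokines, 11 were measured (CCR1, CCR2, CCR4, CCR6, CCR7, CCR8, CCR9, CCR10, ACKR2, ACKR4 and CCRL2). None passed in any comparison by limma, with 2, 2 and 3 of 11 at an unadjusted p under 0.05 for shEZH2, shRING1B and shBMI1 against shGFP (16.2%, 8.60% and 5.58% of all genes). CCR6, the receptor of CCL20, had 5.18 and 5.05 on the shEZH2 arrays, 4.94 and 5.15 on the shRING1B arrays, 5.16 and 4.94 on the shBMI1 arrays and 4.70 and 4.83 on the shGFP arrays. All 6 knockdown arrays lay above shGFP, by means of 0.35 with shEZH2, 0.28 with shRING1B and 0.29 with shBMI1 (limma adjusted p = 0.213, 0.558 and 0.884), and the gene was among the dimmest 30%, as were 9 of the 11. ACKR4, a scavenger that removes CCL19, CCL21 and CCL25, was at -0.24 with shEZH2, -0.36 with shRING1B and -0.51 with shBMI1, its arrays below shGFP in all 3, and none passed (limma adjusted p = 0.435, 0.526 and 0.664).

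Lists of signals that can lie upstream of CC chemokines were measured only in part and gave few calls. Of 17 cytokines listed as inducers of CC chemokines, 9 were measured (IL17A, IL17C, IL17F, IL18, IL22, TNF, IL4, IL13 and TSLP). IL1A and IL1B were not among them. By limma, 0 of the 9 passed against shGFP in the 3 comparisons. At an unadjusted p under 0.05 there were 2, 2 and 0 of 9 for shEZH2, shRING1B and shBMI1 (16.2%, 8.60% and 5.58% of all genes). IL18, an interleukin 1 family cytokine, had 9.75 and 9.76 on the shEZH2 arrays, 8.88 and 9.16 on the shRING1B arrays, 9.17 and 9.19 on the shBMI1 arrays and 9.36 and 9.27 on the shGFP arrays. It was higher with shEZH2 than with shRING1B by 0.73 ± 0.11 (limma adjusted p = 0.0305), in a comparison that called 0.578% of all genes.

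Among 19 receptors and adaptors, 12 were measured and 0 passed against shGFP by limma, with 3, 2 and 1 of 12 at an unadjusted p under 0.05 for shEZH2, shRING1B and shBMI1 (16.2%, 8.60% and 5.58% of all genes). IRAK2, a kinase of interleukin 1 and Toll-like receptor signalling, had 8.53 and 8.52 on the shEZH2 arrays, 8.54 and 8.17 on the shRING1B arrays, 7.83 and 8.09 on the shBMI1 arrays and 7.91 and 7.86 on the shGFP arrays. Its shEZH2 and shRING1B arrays lay above those of the other hairpins, and the changes of 0.64 and 0.47 against shGFP did not pass (limma adjusted p = 0.0891 and 0.394).

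Of 15 NF-kB subunits and regulators, 8 were measured and 0 passed against shGFP by limma, with 4, 2 and 0 of 8 at an unadjusted p under 0.05 for shEZH2, shRING1B and shBMI1 (16.2%, 8.60% and 5.58% of all genes). The median was 0.20 with shEZH2, 0.13 with shRING1B and -0.02 with shBMI1, beside -0.01, -0.00 and -0.01 over all genes. NFKB2, a subunit of the non-canonical pathway, had 8.48 and 8.42 on the shEZH2 arrays, 8.38 and 8.15 on the shRING1B arrays, 7.73 and 8.00 on the shBMI1 arrays and 7.83 and 8.05 on the shGFP arrays. As for CCL20, its shEZH2 arrays were the highest, its shRING1B arrays came next and the shBMI1 and shGFP arrays overlapped, with changes of 0.51 and 0.33 with shEZH2 and shRING1B against shGFP (limma adjusted p = 0.122 and 0.542). NFKB2 had the largest change of the list with shEZH2, and the members did not move alike. Positive and negative values against shGFP numbered 7 and 1 with shEZH2, 5 and 3 with shRING1B, and 2 and 6 with shBMI1. With shRING1B the largest value was that of CYLD, at 0.37 (limma adjusted p = 0.309), beside 0.22 with shEZH2 (0.237).

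CXC chemokines, the neutrophil- and T cell-attracting relatives, had 13 of 14 listed genes measured and 0 called against shGFP by limma, with 2, 2 and 3 of 13 at an unadjusted p under 0.05 for shEZH2, shRING1B and shBMI1 (16.2%, 8.60% and 5.58% of all genes). CXCL8 had the largest value with both shEZH2 (0.90) and shRING1B (0.95). CXCL16 was higher with shEZH2 than with shBMI1 by 0.55 ± 0.09 (limma adjusted p = 0.0381), the 1 call on this list among the 6 comparisons, where 0.974% of all genes were called.

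The 5 protein-coding genes whose pattern over the 8 arrays was most like that of CCL20 were CSF3, LURAP1L, SAA1, TRIB3 and STC2. Likeness was the root mean square difference between log2 profiles, each centred on its own mean, and ran from 0.29 to 0.30 for these genes against a median of 0.73 over 11915 genes. CSF3, the granulocyte colony-stimulating factor, had 9.61 and 9.35 on the shEZH2 arrays, 9.43 and 9.03 on the shRING1B arrays, 8.07 and 9.004 on the shBMI1 arrays and 8.16 and 8.30 on the shGFP arrays. SAA1, an acute phase protein, had 6.70 and 6.52 on the shEZH2 arrays, 6.19 and 5.88 on the shRING1B arrays, 5.12 and 5.76 on the shBMI1 arrays and 5.68 and 5.50 on the shGFP arrays. Because the 5 were chosen for their likeness to CCL20 on these same arrays, their differences between hairpins follow from the choice, and no p-value is given for them. As a description, the log2 difference between shEZH2 and shGFP was 1.25 for CSF3, 1.37 for LURAP1L, 1.02 for SAA1, 1.05 for TRIB3 and 1.48 for STC2. Of the other 9 members, CCL3 and CCL4 came nearest, at ranks 528 and 682 of 11915, and CCL2 was farthest, at rank 10439. Profiles were centred but not scaled, so a gene of similar shape with smaller changes does not count as near.

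**Figure D3:**
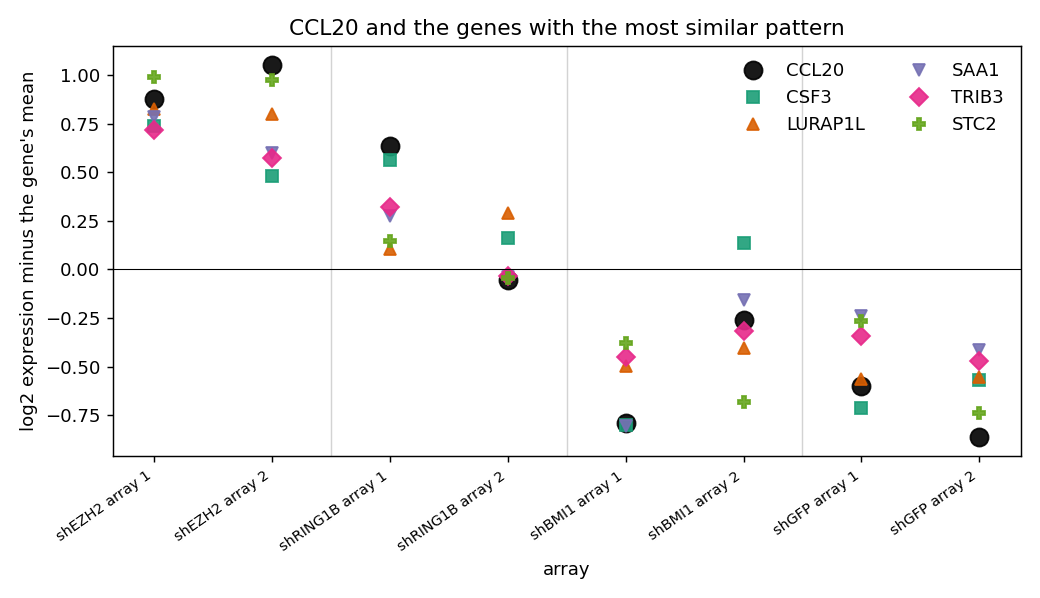
Log2 expression of CCL20 and the 5 genes most like it on each of the 8 arrays (x axis), each centred on its own mean over all arrays (y axis). The 5 genes were chosen for this likeness, so that all 6 lie above their means on the shEZH2 arrays and below them on the shGFP arrays follows from the choice.

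Markers of other cells were also measured. Of 18 leukocyte markers 8 were measured, and all 8 had positive values with shEZH2 against shGFP (median 0.22, beside -0.01 over all genes). By limma 0 passed the threshold, where 0.732% of all genes did, and 1 had an unadjusted p under 0.05, where 16.2% of all genes did. The mean level of these markers was 6.12 to 6.19 on the shEZH2 arrays, 5.98 to 6.13 on the shRING1B arrays, 5.95 to 5.96 on the shBMI1 arrays and 5.90 to 5.96 on the shGFP arrays. CD14, a monocyte receptor, had the largest value of the list, 0.50 with shEZH2 against shBMI1 (limma adjusted p = 0.364). Of the 8, 4 were in the dimmest 30% of genes, and log2 array values give no level of 0.

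Of 7 fibroblast markers 3 were measured, with a mean of 6.26 to 6.47 on the shEZH2 arrays, 5.92 to 5.99 on the shRING1B arrays, 5.96 to 6.17 on the shBMI1 arrays and 5.73 to 5.88 on the shGFP arrays. With shEZH2 against shGFP, DCN rose by 0.93 ± 0.10 (limma adjusted p = 0.0109), while LUM was at 0.89 and THY1 at -0.15 without passing. DCN was also higher with shEZH2 than with shRING1B, by 0.80 ± 0.10 (limma adjusted p = 0.0186). That comparison called 0.578% of all genes. Against shGFP, DCN was at 0.13 with shRING1B and at 0.45 with shBMI1, and neither passed. Of 4 melanocyte markers 3 were measured, and their mean was 5.16 to 5.19 on the shEZH2 arrays, 4.93 to 5.12 on the shRING1B arrays, 4.93 to 5.01 on the shBMI1 arrays and 4.98 to 5.05 on the shGFP arrays. With shEZH2 against shGFP, MLANA, among the dimmest 30%, rose by 0.64 ± 0.11 (limma adjusted p = 0.046), while PMEL was at -0.15 and TYR at -0.01 without passing (list median -0.01). Of 4 endothelial markers 3 were measured, and 0 passed by limma with shEZH2 against shGFP, where 0.732% of all genes did. At an unadjusted p under 0.05 there was 1, where 16.2% of all genes were. The mean of these markers was 5.73 to 5.79 on the shEZH2 arrays, 5.88 to 6.01 on the shRING1B arrays, 5.84 to 6.14 on the shBMI1 arrays and 5.74 to 5.79 on the shGFP arrays. KDR, an endothelial growth factor receptor, had the largest value of that list, -0.72 with shEZH2 against shRING1B (limma adjusted p = 0.245). The leukocyte, fibroblast and melanocyte means were higher on both shEZH2 arrays than on both shGFP arrays, as CCL20 was, and their part in its values was not tested. Leukocyte and fibroblast means were also above shGFP on both shRING1B arrays. Fibroblast means were above shGFP on both shBMI1 arrays too, where CCL20 overlapped shGFP. The endothelial means overlapped between shEZH2 and shGFP.

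**Figure D4:**
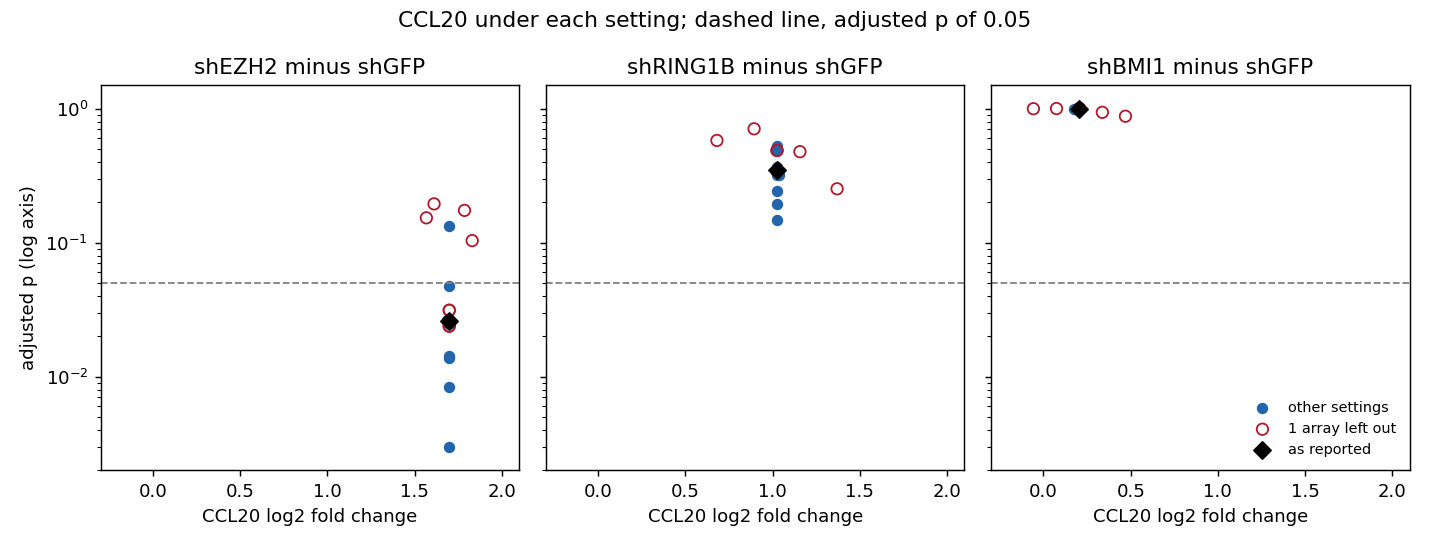
Adjusted p (y axis, log scale) against log2 fold change (x axis) of CCL20 for shEZH2, shRING1B and shBMI1 against shGFP, as reported (diamond), under the other settings (filled points) and with 1 array left out (open points). For shEZH2 the change stays between 1.57 and 1.83 while adjusted p crosses the dashed line at 0.05; for shRING1B and shBMI1 every point lies above it.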

How the data were processed

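The authors deposited log2 expression values per probe set, 1 column per array. RMA and limma are named in the submitters' processing notes without versions or roles; the sources used here give neither array library nor build. RMA computes background-corrected, quantile-normalized and summarised values, so a shift common to most genes is lost and differences of dim genes are compressed.

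Of 53617 probe sets, 16098 had 1 symbol in the platform annotation, 0 had several and 37519 were unnamed. Symbols were updated by gene ID through a RefSeq table (GRCh38.p14), and for the 779 genes with several probe sets the one with the highest mean was kept, which gave 14884 genes, 11916 of them protein-coding. No values were missing, and 0 pairs of arrays were identical. Correlations were 0.995 to 0.996 between arrays of a hairpin and 0.992 to 0.996 between hairpins.

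Group means were fitted over all 8 arrays with limma 3.58.1 in R 4.3.3 (4 residual degrees of freedom, empirical Bayes without trend). P-values were two-sided and adjusted by Benjamini-Hochberg over all genes within each of 6 comparisons, with a threshold of 0.05. Exact permutation of 2 against 2 arrays gives no two-sided p under 0.333. The fit was tested on simulated data with independent noise on each array. Such data cannot show whether arrays of 1 hairpin are separate cultures or whether a batch lies behind the title prefix. Alternatives changed the normalization, the filter on dim genes, the features tested, the variance model and the arrays included, 1 at a time. The number of arrays limits the precision.

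The members, gene lists and alternatives were chosen with earlier results of these data known. Named genes were the 10 members, the targeted genes, measured receptors and other CC chemokines, called members and the largest change of each further list, and the 5 genes most like CCL20. Neighbours of CCL20, CCL3L1 and the uncalled markers given beside a called marker fall outside this rule.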

Additional observations from a re-analysis of the deposited data

Results flagged for a closer look

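CCL20 was the 1 member for which the effects of 2 knockdowns differed in a direct test. It was higher with shEZH2 than with shBMI1 by 1.49 ± 0.24 on the log2 scale (limma adjusted p = 0.0363), in 2 of 2 shEZH2 arrays against 2 of 2 shBMI1 arrays. The call was lost in 6 of the 8 fits that left out 1 array (adjusted p up to 0.224) and over all probe sets (0.177). The prefix of the shEZH2 titles differs from that of the shBMI1 titles, and a batch or line behind it cannot be told apart from the hairpin.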

How the results depend on the processing

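CCL20 kept its direction with shEZH2 against shGFP and against shBMI1 under every setting run. Against shGFP the log2 change ran from 1.57 to 1.83 with 1 array left out (adjusted p 0.0238 to 0.194), so the number of members called was 0 to 1, and over all probe sets it was 1.70 with 0 members called (adjusted p = 0.132). Against shBMI1 it ran from 1.23 to 1.76 (0.025 to 0.224; 0 to 1 members called), and it was 1.49 with 0 members called both over all probe sets (0.177) and with the replicate number as a block (0.0572). With the replicate block the adjusted p against shGFP was 0.0476, and no other call among the members changed. Titles number arrays 1 and 2 within each hairpin, but deviations of same-numbered arrays correlated above 0.1 in 2 of 6 pairs of hairpins (0.00066 to 0.248), so the numbers were not taken as pairs. CCL20 with shBMI1 against shGFP ran from -0.058 to 0.47 with 1 array left out. For the other 9 members no call appeared under any alternative, and 720 values kept their sign while 33 did not. The 33 are given here as single values or, with 1 array left out, within the range for each gene and comparison. CCL28 was at -0.00087 with shEZH2 against shGFP after median centring, and at -0.0217 after median centring and -0.0247 after quantile normalization against shRING1B. With 1 array left out the ranges that crossed 0 were, for shEZH2 against shGFP, -0.25 to 0.030 (CCL2), -0.015 to 0.15 (CCL22) and -0.15 to 0.17 (CCL28). For shRING1B against shGFP they were -0.18 to 0.35 (CCL3), -0.45 to 0.0073 (CCL4), -0.34 to 0.45 (CCL5), -0.057 to 0.17 (CCL27) and -0.19 to 0.21 (CCL28). For shBMI1 against shGFP they were -0.16 to 0.64 (CCL5) and -0.34 to 0.10 (CCL27). For shEZH2 against shRING1B they were -0.045 to 0.65 (CCL7), -0.048 to 0.036 (CCL26), -0.055 to 0.18 (CCL27) and -0.20 to 0.20 (CCL28). For shEZH2 against shBMI1 they were -0.54 to 0.15 (CCL7) and -0.12 to 0.041 (CCL22). For shRING1B against shBMI1 they were -0.070 to 0.12 (CCL2), -0.15 to 0.35 (CCL4), -0.44 to 0.061 (CCL5), -0.042 to 0.40 (CCL27) and -0.0050 to 0.40 (CCL28). Without the dimmest 30% of genes CCL2, CCL3, CCL4, CCL7 and CCL26 had no value. The count over all genes with shEZH2 against shGFP was 109, against 409 without the dimmest genes, 648 when the variance was trended and robust, 174 when arrays were weighted, 169 over protein-coding genes, 39 with only the 4 arrays compared and 4 over all probe sets. It was 0 without either shEZH2 array, 19 without shGFP replicate 1 and 6 without shGFP replicate 2. Signal over background was not analysed here, so whether the dim members were detected was not tested.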

Other observations

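The genes next to CCL20 on chromosome 2, picked by position and not by the rule for named genes, gave a mixed set of values. AGFG1, the nearest measured protein-coding gene before it, had 10.51 and 10.44 on the shEZH2 arrays and 10.38 and 10.38 on the shGFP arrays, and DAW1, the nearest after it, had 7.15 and 7.36 on the shEZH2 arrays and 7.44 and 7.18 on the shGFP arrays. Their log2 changes were 0.10 ± 0.08 and -0.05 ± 0.12, and neither passed (limma adjusted p = 0.608 and 0.871). PID1, the second after it, had 6.76 and 6.82 on the shEZH2 arrays and 6.16 and 6.33 on the shGFP arrays, a change of 0.54 ± 0.11 that did not pass (limma adjusted p = 0.0816). TM4SF20, the second before it and among the dimmest 30% of genes, had 3.86 and 3.35 on the shEZH2 arrays and 3.47 and 3.14 on the shGFP arrays, a change of 0.30 ± 0.19 (limma adjusted p = 0.481).

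DSG3, a desmosomal cadherin on the epithelial list, was higher with shEZH2 than with shRING1B by 1.01 ± 0.13 and than with shBMI1 by 0.91 ± 0.13 (limma adjusted p = 0.0187 and 0.022). It had 10.33 and 10.37 on the shEZH2 arrays, 9.22 and 9.46 on the shRING1B arrays, 9.41 and 9.46 on the shBMI1 arrays and 9.76 and 10.09 on the shGFP arrays. The other epithelial markers were mixed. With shEZH2 against shBMI1, EPCAM was also higher, at 0.55 with no overlap between arrays, while KRT14 was at -0.27, KRT5 at -0.18 and SFN at -0.06. With shEZH2 against shRING1B, KRT14 was at -0.06, SFN at -0.04, KRT5 at 0.07 and EPCAM at 0.10. None of these passed the threshold.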
